A study of Mus musculus with 6 samples.

Results

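The genes described here are 10 cell-cycle genes of G1 and of cell-cycle exit: the D-type cyclins Ccnd1, Ccnd2 and Ccnd3, the E-type cyclin Ccne1, the kinases Cdk4 and Cdk6, the kinase inhibitors Cdkn1a, Cdkn1b and Cdkn2c, and the retinoblastoma gene Rb1. They were chosen by symbol in the platform annotation, keeping probe sets that name 1 gene and, per gene, the probe set with the highest mean over all 6 arrays. All 10 were found among 18820 genes with such a probe set, and all 10 lay above the filter on dim genes that left 11292 genes for testing. The RNA came from C2C12, an immortal line of mouse myoblasts whose cells fuse to myotubes in low serum. All samples had 6 days in medium with 2% horse serum before transfection, and RNA was taken on day 7, 24 h after it. The 3 silenced arrays hold cells given a locked nucleic acid inhibitor against miR-382-5p at 50 nM, while the cells of the 3 control arrays received Negative Control A; a final oligonucleotide concentration of 50 nM is stated for the transfections as a whole. Both groups carry replicate numbers 1 to 3, so each number names 1 silenced and 1 control array. The labels say neither what a number stands for nor whether cultures were separate. The p-values therefore reflect the spread among these 6 arrays, some of which may be technical.

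In G1, D-type cyclins bind CDK4 or CDK6 and cyclin E binds CDK2, and these kinases phosphorylate the retinoblastoma protein, which then releases E2F factors to switch on genes of DNA replication. The inhibitors oppose this: the Cdkn2c product p18 binds CDK4 and CDK6, and the products of Cdkn1a and Cdkn1b, p21 and p27, bind cyclin-CDK complexes. Myoblasts leave the cell cycle for good as they form myotubes, with p21 and hypophosphorylated retinoblastoma protein holding that state, and cyclin D3 is the D-type cyclin known to be kept in differentiating muscle cells. Some mononucleated cells remain in such cultures and can still divide.

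The microRNA that was inhibited is shown because its seed, bases 2 to 8 and printed in capitals, is the part that pairs with target transcripts. The mature sequence is that of RefSeq, on build GRCm38.p6 at chr12:109733781-109733802, plus strand.
mmu-miR-382-5p: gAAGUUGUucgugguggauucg
The arrays do not measure this mature form, and matches of the seed in the transcripts of the 10 genes were not analysed here.

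Values are log2 expression levels that the authors obtained with RMA, which corrects background, brings the arrays to 1 distribution and combines each probe set's probes. Levels of the 10 genes are compared between arrays for 1 gene at a time, because probe sets differ in brightness; levels of cell type markers are given only to show which lay above the filter on every array. Pairwise correlations of arrays ran from 0.985 to 0.995 over the tested genes. The arrays numbered 1 stood apart from the rest: their scores on a leading principal component with 46.8% of the variance were -19.3 (silenced) and -15.0 (control), where the remaining arrays scored 7.29 to 9.96. All 7 myotube markers checked lay above the filter, with Acta1, the skeletal muscle actin gene, between 12.18 and 12.31 and Myh3, the embryonic myosin heavy chain, between 11.22 and 11.57. The satellite cell factor Pax7 lay between 5.57 and 5.97, Myf5, which marks myoblasts, between 7.12 and 7.62, and Cd34, a surface marker of quiescent satellite cells, between 8.83 and 9.83. Among fibroblast markers, the collagen gene Col1a1 lay between 10.68 and 10.91 and the receptor gene Pdgfra between 6.21 and 6.74, while Thy1 lay below the filter, between 3.16 and 3.60. Of the adipocyte markers, Pparg lay above the filter, between 5.98 and 6.41, and Adipoq, Fabp4 and Plin1 below it, with a lowest value of 2.45 and a highest of 3.53.

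Silencing of miR-382-5p moved none of the 10 genes past the test. limma, a linear model fitted across all tested genes, gave adjusted p-values between 0.871 and 0.981 for them (Benjamini-Hochberg over 11292 genes, 2-sided). No gene of the whole table passed either (0%), while limma gave 542 genes, 4.80%, an unadjusted value under 0.05, none of them among the 10. The differences, silenced minus control, ran from -0.13 to 0.18 log2, with 6 genes of higher and 4 of lower mean in silenced arrays. Their median was 0.10, against 0.0089 over all tested genes, of which 52.7% had a higher mean in silenced arrays. The intervals below set how large a change these arrays could have missed.

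**Figure D1:**
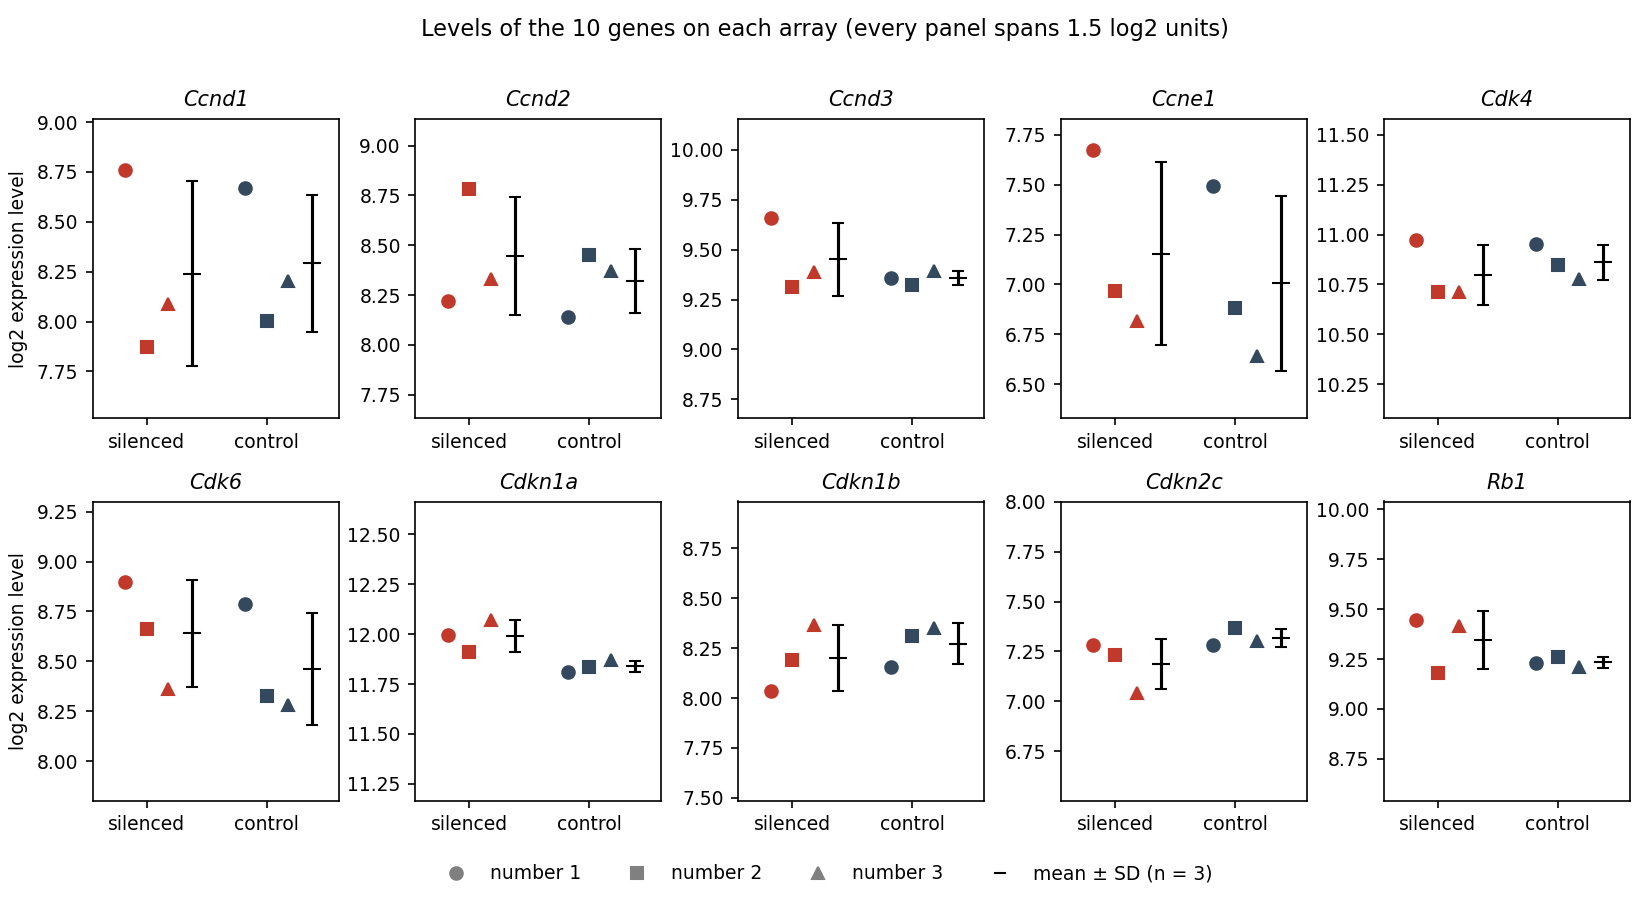
Log2 expression level (vertical axis, 1.5 log2 units in every panel) of each of the 10 genes on the 3 silenced and the 3 control arrays, with circle, square and triangle for replicate numbers 1, 2 and 3 and mean ± SD (n = 3) beside them. Circles lie above the other symbols in both groups for Ccnd1, Ccne1, Cdk4 and Cdk6, and below them for Ccnd2 and Cdkn1b; for Cdkn1a the 3 silenced arrays lie above the 3 control arrays.

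Among the inhibitors, Cdkn1a was the only one of the 10 genes whose groups did not overlap. It encodes p21, which inhibits cyclin-CDK complexes and rises when myoblasts differentiate. Its level was 11.99, 11.91 and 12.07 in silenced arrays 1, 2 and 3, against 11.81, 11.84 and 11.87 in control arrays 1, 2 and 3. The lowest silenced array thus lay just above the highest control array. The difference was 0.15 ± 0.08 (SE) log2, with a 95% confidence interval of -0.03 to 0.34 (limma, adjusted p = 0.871), and it was 0.18, 0.07 and 0.20 within numbers 1, 2 and 3. The groups lay apart for 11.8% of all tested genes and with the silenced arrays higher for 6.94%, so 1 of the 10 is near the background. A difference in the same direction within all 3 numbers was found for 3 of the 10 genes (Cdkn1a, Ccne1 and Cdk6, each higher in the silenced array). Such a run occurred in 35.6% of all tested genes, and with the silenced array higher in 19.7%.

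Cdkn1b encodes p27, which binds cyclin E and cyclin A complexes with CDK2. It read 8.04, 8.19 and 8.37 in silenced arrays 1, 2 and 3, and 8.16, 8.31 and 8.35 in control arrays 1, 2 and 3. The groups overlapped, and the difference was -0.07, with an interval of -0.33 to 0.18. A second probe set naming Cdkn1b alone, dimmer and not used for the test, averaged 6.39 in silenced and 6.41 in control arrays.

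Cdkn2c encodes p18, which binds CDK4 and CDK6 and keeps D-type cyclins from activating them. Silenced arrays 1, 2 and 3 had 7.28, 7.23 and 7.04, against 7.28, 7.37 and 7.30 in control arrays 1, 2 and 3. It was the most negative of the 10 differences, at -0.13 (interval -0.34 to 0.08), and silenced array 3 lay lowest, with 0.0021 within number 1, -0.14 within number 2 and -0.26 within number 3. Rb1, whose protein holds E2F factors in check, read 9.45, 9.18 and 9.41 in silenced arrays 1, 2 and 3 and 9.23, 9.26 and 9.21 in control arrays 1, 2 and 3. Silenced arrays 1 and 3 of Rb1 lay above all controls and silenced array 2 below them, for a difference of 0.11 (interval -0.11 to 0.33).

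The D-type cyclin genes had differences of either sign. Ccnd1, the cyclin most closely tied to growth factor signals, averaged 8.24 ± 0.46 in silenced and 8.29 ± 0.34 in control arrays (SD, n = 3 each), a difference of -0.05 with an interval of -0.65 to 0.55. Ccnd2 averaged 8.44 ± 0.30 in silenced and 8.32 ± 0.16 in control arrays, a difference of 0.12 (interval -0.25 to 0.50). Both intervals are wide because arrays of 1 group lay far apart. Ccnd3, the D-type cyclin of muscle differentiation, read 9.66, 9.31 and 9.39 in silenced arrays 1, 2 and 3, against 9.36, 9.32 and 9.39 in control arrays 1, 2 and 3. Only silenced array 1 of Ccnd3 stood out, and the difference was 0.30 within number 1 and -0.01 and -0.0059 within numbers 2 and 3; without silenced array 1 it was -0.0084 in place of 0.09.

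Ccne1 encodes the cyclin that activates CDK2 at the end of G1, and Cdk4 and Cdk6 the kinases of the D-type cyclins. Ccne1 averaged 7.15 ± 0.46 in silenced and 7.01 ± 0.44 in control arrays (SD, n = 3 each), a difference of 0.15 with an interval of -0.51 to 0.80. Cdk6 averaged 8.64 ± 0.27 in silenced and 8.46 ± 0.28 in control arrays, a difference of 0.18 (interval -0.24 to 0.60). Cdk4 averaged 10.80 ± 0.15 in silenced and 10.86 ± 0.09 in control arrays, a difference of -0.06 (interval -0.30 to 0.18). The widest bound, for Ccne1, corresponds to a 1.75-fold change. When the fit also held the replicate number as a block, the intervals narrowed to between -0.33 and 0.38 over all 10 genes, and again no gene of the table passed (smallest adjusted p of the 10 = 0.504, Cdk6, limma). In that fit 10.3% of all tested genes, and none of the 10, had an unadjusted value under 0.05.

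**Figure D2:**
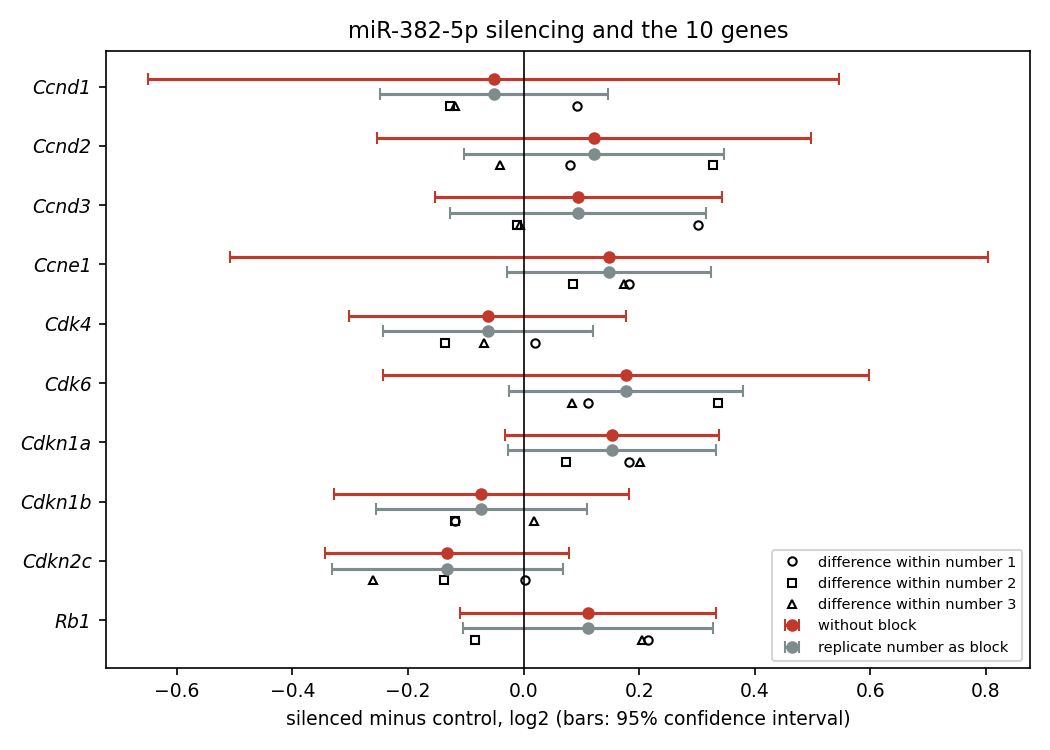
Silenced minus control difference (horizontal axis, log2) of each of the 10 genes, with 95% confidence intervals without a block (red) and with the numbers blocked (grey), and the 3 differences within numbers 1, 2 and 3 as open symbols. All 20 intervals include 0; those of Ccnd1 and Ccne1 are the ones that narrow most with the block.

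Differences between replicate numbers were called for 3 of the 10 genes. Ccnd1 and Ccne1 differed between numbers in an F test over the 3 numbers with the group in the model (limma, adjusted p = 0.0298 and 0.0200), and both were highest in the arrays numbered 1. The F test thus called 2 of the 10 genes, where 352 of 11292 tested genes, 3.12%, passed the same test. Cdk6 was higher in number 1 than in number 3, and the 3 inhibitor genes and Rb1 passed in no pair of numbers. Each pair of numbers rests on 2 arrays against 2, and number and any unlabelled difference between the samples of that number cannot be told apart. In RNA of a whole culture, a difference in the number of cells of a type and a difference in RNA per cell cannot be told apart either.

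Ccnd1 read 8.76 (silenced) and 8.67 (control) in number 1, against 7.87 and 8.00 in number 2 and 8.09 and 8.21 in number 3. Both arrays numbered 1 lay clear above the other 4. The gene was higher in number 1 than in number 2 by 0.78 ± 0.10 (SE) log2, or 1.71-fold (limma, adjusted p = 0.0171), and than in number 3 by 0.57 ± 0.10 (SE), or 1.48-fold (limma, adjusted p = 0.0346). Numbers 2 and 3 differed by -0.21, with an interval of -0.45 to 0.03. A further probe set, dimmer and annotated to both LTO1 and Ccnd1, was 0.11 higher in number 1 than in the mean of the other numbers, against 0.67 for the probe set of Ccnd1 alone.

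Ccne1 read 7.68 (silenced) and 7.49 (control) in number 1, against 6.97 and 6.88 in number 2 and 6.82 and 6.64 in number 3. It had the largest spread of the 10 genes over the arrays, with an SD of 0.41 over all 6, at percentile 98.1 of the tested genes. The gene was higher in number 1 than in number 2 by 0.66 ± 0.09 (SE), or 1.58-fold (limma, adjusted p = 0.0202), and than in number 3 by 0.86 ± 0.09 (SE), or 1.81-fold (limma, adjusted p = 0.0137). In both number 2 and number 3 the silenced array lay slightly above the control array, as it did in number 1.

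Cdk6, the partner kinase of the D-type cyclins beside CDK4, read 8.90 (silenced) and 8.78 (control) in number 1, against 8.66 and 8.32 in number 2 and 8.36 and 8.28 in number 3. It was higher in number 1 than in number 3 by 0.52 ± 0.10 (SE), or 1.43-fold (limma, adjusted p = 0.0465), but the F test over the 3 numbers did not pass (limma, adjusted p = 0.0887). Against number 2 the difference was 0.35, with an interval of 0.10 to 0.60 (limma, adjusted p = 0.127). Both passed when only genes above the 60th percentile were tested (limma, adjusted p = 0.0160 for the F test and 0.0427 against number 2) and with a variance trend (0.00625 and 0.0284). Of the 10 genes, 2 were thus called higher in number 1 than in number 2 and 3 higher than in number 3, where 0.788% and 2.20% of all tested genes were. None was called lower, against 1.97% and 2.28% of tested genes.

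Cdk4 ran the same way without passing: 10.97 (silenced) and 10.95 (control) in number 1, 10.71 and 10.85 in number 2, and 10.71 and 10.78 in number 3. Its differences were 0.18 (interval -0.04 to 0.40) against number 2 and 0.22 (interval -0.0050 to 0.44) against number 3. Both arrays numbered 1 lay above the other 4 for Cdk4, Ccnd1, Ccne1 and Cdk6, which is 4 of 10 genes where 16.0% of all tested genes had that order. They lay below the other 4 for Ccnd2 and Cdkn1b, where 15.3% of tested genes did.

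Ccnd2, another D-type cyclin, had its lowest levels in number 1 but was not called. It read 8.22 (silenced) and 8.14 (control) in number 1, against 8.78 and 8.45 in number 2 and 8.33 and 8.37 in number 3. Silenced array 2 was the highest of all. The difference was -0.44 against number 2, with an interval of -0.71 to -0.16 (limma, adjusted p = 0.101), and -0.17 against number 3 (interval -0.45 to 0.10). It passed against number 2 when only genes above the 60th percentile were tested (adjusted p = 0.0263) and with a variance trend (adjusted p = 0.0156), both with limma. Ccnd3 differed by 0.19 (interval -0.08 to 0.46) and 0.12 (interval -0.15 to 0.39) between number 1 and numbers 2 and 3 in turn; without silenced array 1 these were 0.04 and -0.04.

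No gene of cell-cycle exit was called between numbers. Cdkn1a was 0.03 higher in number 1 than in number 2 (interval -0.19 to 0.25) and differed by -0.07 from number 3 (interval -0.29 to 0.15). Cdkn1b was lowest in the arrays numbered 1, with differences of -0.16 (interval -0.38 to 0.07) and -0.26 (interval -0.49 to -0.04; limma, adjusted p = 0.182) against numbers 2 and 3. For Cdkn2c they were -0.02 (interval -0.26 to 0.23) and 0.11 (interval -0.14 to 0.35), and for Rb1 0.12 (interval -0.15 to 0.38) and 0.03 (interval -0.24 to 0.29). No gene of the table was called between numbers 2 and 3 (0%; 878 genes, 7.78%, had an unadjusted p under 0.05, and none of the 10 did).

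**Figure D3:**
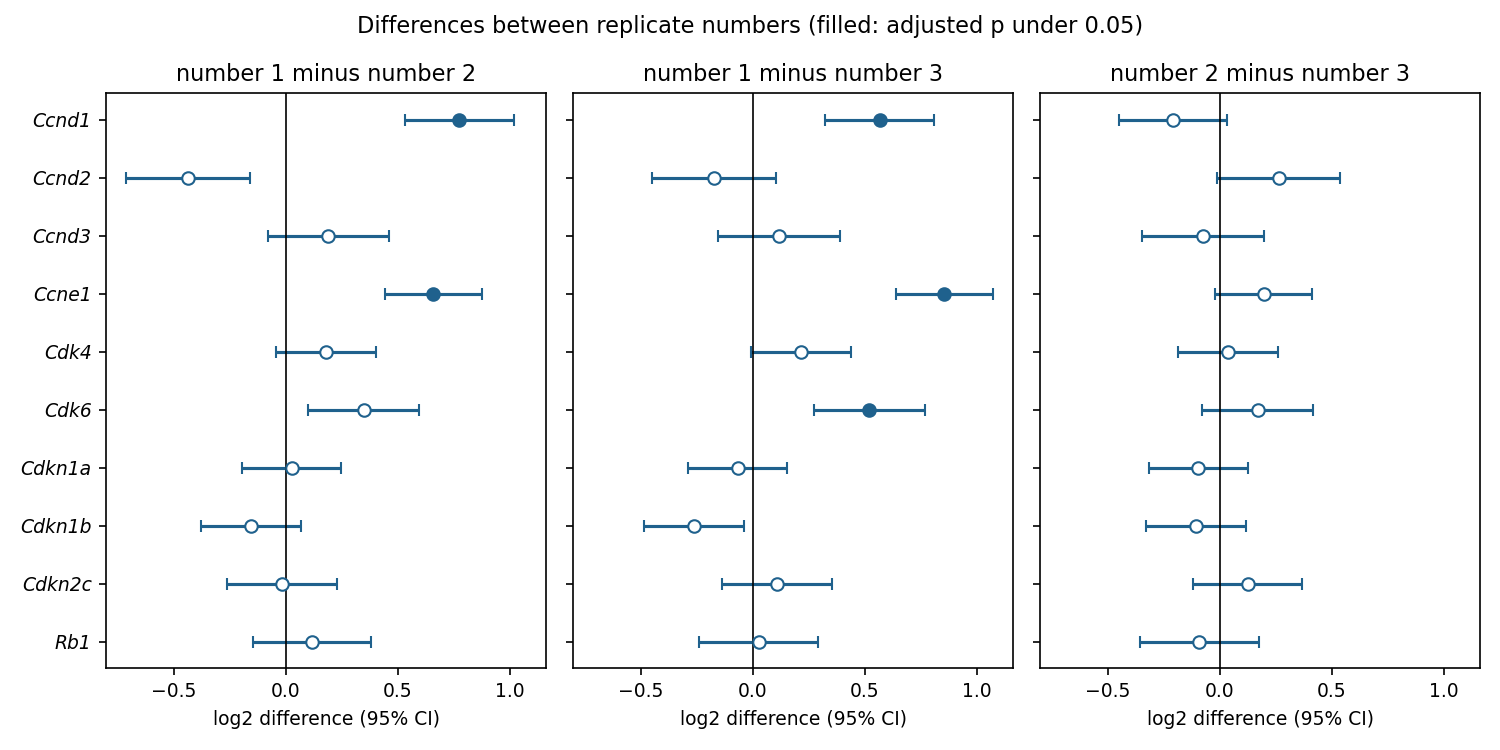
Difference between replicate numbers (horizontal axis, log2, with 95% confidence interval) for each of the 10 genes, in 3 panels for number 1 minus 2, number 1 minus 3 and number 2 minus 3; filled points have an adjusted p under 0.05. Filled points are Ccnd1 and Ccne1 in the first panel and Ccnd1, Ccne1 and Cdk6 in the second, all to the right of 0; the third panel has none.

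These calls depended on single arrays and on the set of genes tested, while the differences kept their sign in every alternative run. Leaving out each array in turn kept Ccnd1 between 0.67 and 0.88 above number 2 and between 0.46 and 0.67 above number 3. Ccne1 stayed between 0.61 and 0.71 above number 2 and between 0.83 and 0.88 above number 3, and Cdk6 between 0.45 and 0.59 above number 3. Without silenced array 3 or without control array 3, none of these calls was kept, with limma adjusted p-values from 0.0635 to 0.371. The calls of Ccnd1 and Ccne1 over number 2 were also lost without silenced array 2 (0.0862 for Ccnd1, 0.112 for Ccne1) or control array 2 (0.0684 for Ccnd1, 0.0860 for Ccne1), and the F test call of Ccnd1 without silenced array 2 (0.0582). Without silenced array 1 Ccnd1 was no longer called over number 3 (0.0524), and without control array 1 Cdk6 was not (0.0552). With no filter on dim genes the calls left were those of Ccnd1 over number 2 (0.0450) and of Ccne1 over number 3 (0.0370). Cdk6 also lost its call without the group in the model (0.0707). Each fit that leaves out 1 array assumes that the lone array of its number varies like the others.

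The promoter of Ccne1 and that of Cdk6 are shown as those of genes that were high together in number 1. Each is the 250 bases before the gene's start in RefSeq, build GRCm38.p6: Ccne1 at chr7:38107491-38107740 on the minus strand and Cdk6 at chr5:3343643-3343892 on the plus strand. Capitals mark the GC box GGGCGG on either strand, a sequence bound by Sp factors.
Ccne1: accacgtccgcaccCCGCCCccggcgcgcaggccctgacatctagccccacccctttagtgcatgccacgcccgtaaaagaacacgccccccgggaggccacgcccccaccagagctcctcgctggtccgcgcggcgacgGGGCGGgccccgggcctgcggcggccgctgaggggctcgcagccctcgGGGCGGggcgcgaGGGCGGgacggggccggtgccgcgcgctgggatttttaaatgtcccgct
Cdk6: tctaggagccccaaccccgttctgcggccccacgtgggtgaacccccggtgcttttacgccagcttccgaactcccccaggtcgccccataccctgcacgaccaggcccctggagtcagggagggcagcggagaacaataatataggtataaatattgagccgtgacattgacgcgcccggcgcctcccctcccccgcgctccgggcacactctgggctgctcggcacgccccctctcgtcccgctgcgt
The Ccne1 window held 4 GC boxes and the Cdk6 window 0, and G and C made up 76% and 66% of their bases, where the median window had 52.4%. A GC box occurred in 32.7% of the 32851 windows of the table and in 7 of the 10 windows that the table lists for 7 of the 10 genes. Neither an E2F site written as TTTCCCGC, TTTGGCGC, TTTCGCGC or TTTGCCGC (1.86% of all windows) nor an AP-1 site TGANTCA (6.75%) occurred in any of these members' windows, with both strands searched, and no motif contains another. Only these exact spellings were searched, so other forms of an E2F or AP-1 site in these windows were not looked for. No window was listed for Ccnd1, Ccnd2 and Rb1, so none could be shown for them.

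Other genes of the G1 to S machinery were called as well. Of all tested genes, 2.20% were called higher in number 1 than in number 3. Of 39 tested G1 to S regulators, 5 were called higher in number 1 than in number 3 and none lower, with a median difference of 0.25 log2 against 0.0069 over all tested genes. They were E2f7 (0.88) and E2f8 (0.69), atypical E2F factors that repress E2F targets, Ccna2 (0.62), the cyclin A gene, Cdk2 (0.52), the kinase of cyclins E and A, and Rbl1 (0.51), which encodes the pocket protein p107; E2f8 and Rbl1 were named after their values were seen. Of these, Ccna2, E2f8 and Rbl1 did not pass the F test over the 3 numbers (limma, adjusted p from 0.0540 to 0.0633). Against number 2, E2f7 (0.71) and Cdk2 (0.51) were called higher and none lower, where 0.788% of all tested genes were called higher. Calls over all tested genes moved with the settings too. Against number 3, in either direction, they were 505, and 99 with no filter, 816 above the 60th percentile and 1084 with a variance trend. Above the 60th percentile 34 of the G1 to S regulators were tested. The 5 calls against number 3 became 1 with no filter, 12 above the 60th percentile, 13 with a variance trend, 11 without control array 1 and 0 without silenced array 3 or control array 3. The 2 calls against number 2 became 0 with no filter or without any 1 of the arrays numbered 2 or 3, 8 above the 60th percentile, 10 with a variance trend and 11 without control array 1. Between silenced and control arrays, the 2 of the 39 with the smallest p were E2f2, an activating E2F, at 8.68, 8.42 and 8.74 in silenced arrays 1, 2 and 3 against 8.38, 8.17 and 8.19 in control arrays 1, 2 and 3, and Mnat1, a subunit of the CDK-activating kinase, with a difference of -0.22 ± 0.07 (SE). Neither passed (limma, adjusted p = 0.871 for both).

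Genes that E2F factors drive in S phase and genes of mitosis had higher means in number 1 than in number 3 throughout. Both lists were chosen with earlier results of these data known, so these counts describe the arrays and are no separate test. Of 26 tested S phase genes, 26 had a higher mean in number 1 than in number 3, with a median of 0.47, and 9 were called higher and none lower. Tk1, a thymidine kinase of nucleotide salvage, differed by 1.00, Fen1, the flap endonuclease of replication, by 0.88 and Uhrf1, needed to keep DNA methylation through replication, by 0.79. Of 25 tested mitotic genes, 25 had a higher mean in number 1 than in number 3, with a median of 0.61, and 18 were called higher and none lower. Over all tested genes, 5799 of 11292 had a higher mean in number 1 than in number 3 and 2.20% were called higher. Fewer passed the F test over the 3 numbers: 6 of the S phase and 10 of the mitotic genes, and 3.12% of all tested genes. Of the mitotic genes, 23 also had a higher mean in number 2 than in number 3, with a median of 0.33 and none called, and of the S phase genes 17 did, with a median of 0.04. Birc5 (survivin) differed by 0.85, the kinase gene Aurkb by 0.75 and the kinase gene Plk1 by 0.70. Of all tested genes, 0.788% were called higher in number 1 than in number 2. Calls between these numbers in either direction were 311 over all tested genes. They became 129 with no filter, 817 above the 60th percentile and 1018 with a variance trend. Above the 60th percentile 21 S phase and 24 mitotic genes were tested. Against number 2 the medians of S phase and mitotic genes were 0.39 and 0.30, with 4 and 0 genes called. These counts became 17 and 10 above the 60th percentile, 16 and 11 with a variance trend, 10 and 6 without control array 1, 2 and 0 with no filter, and 0 and 0 without any 1 of the arrays numbered 2 or 3. Without silenced array 3 or without control array 3, none of these genes was called against number 3, with medians of 0.42 and 0.57 for S phase and 0.56 and 0.65 for mitotic genes. Against number 3, 3 S phase and 1 mitotic genes were called with no filter, 19 and 21 above the 60th percentile, 20 and 22 with a variance trend, and 14 and 20 without control array 1.

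**Figure D4:**
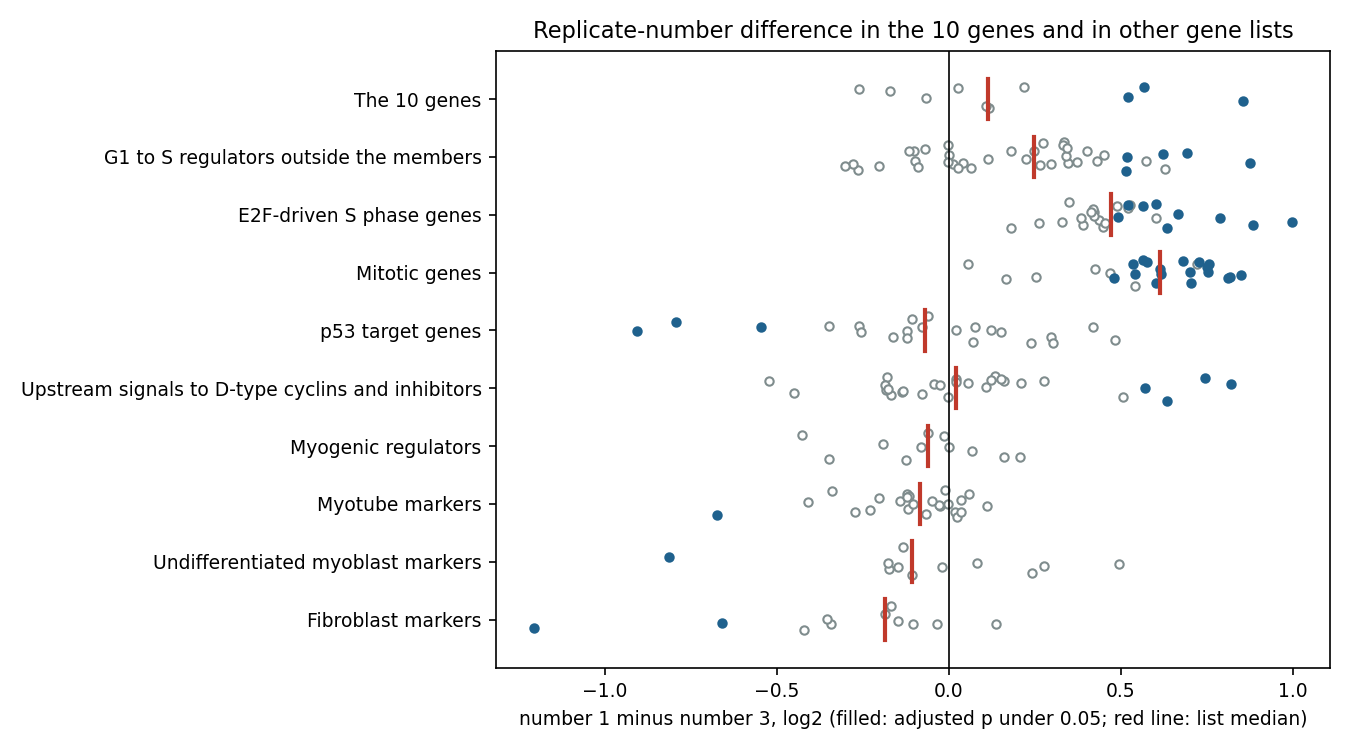
Number 1 minus number 3 difference (horizontal axis, log2) of every tested gene in the 10 described here and in 9 other lists, 1 point per gene, filled where the adjusted p is under 0.05, with a red line at each list's median. All points of the S phase and mitotic lists lie to the right of 0 and the medians are 0.47 and 0.61, against 0.11 for the 10 genes and -0.19 for fibroblast markers.

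Of the markers of other cell types, 2 of 11 fibroblast and 1 of 11 undifferentiated myoblast markers passed the F test over the 3 numbers. Of all tested genes 3.12% passed it, and with 11 genes per list such counts rest on few genes. The level of 11 tested fibroblast markers, the mean of their log2 values centred per gene, was -0.20 (silenced) and -0.17 (control) in number 1 and between -0.0065 and 0.16 on the other 4 arrays, and 10 of the 11 had a lower mean in number 1 than in number 3. Of these, the matrix proteoglycan genes Lum (-1.21) and Dcn (-0.66) were called lower, as were 2.28% of all tested genes. Lum was dim, at 3.53 (silenced) and 3.76 (control) in number 1, under the filter level of 3.87. It was tested because its mean over all 6 arrays, 4.22, lay above that level, with its highest value, 5.29, in control array 3. The 24 myotube markers lay at -0.0091 and -0.05 in number 1 and between -0.11 and 0.19 elsewhere, and 1 was called, Mb, the myoglobin gene, lower in number 1 than in number 3 (-0.68). Among 11 markers of undifferentiated myoblasts, Cd34 was called lower in number 1 than in both other numbers (-0.81 each). Fgfr4 was called lower than in number 2 (-0.53), where 1.97% of all tested genes were, but did not pass the F test (limma, adjusted p = 0.0570). These myoblast markers had 2 calls against number 2 and 1 against number 3. With no filter the calls became 0 and 0, and with a variance trend 3 and 1. Met, the hepatocyte growth factor receptor gene of satellite cells, had higher levels in number 1, by 0.36 against number 2 and 0.24 against number 3, and was not called (limma, adjusted p = 0.0868 and 0.189). Means were lower in number 1 than in number 3 for 7 of the 11 and higher for 4, with a median of -0.11, and both arrays numbered 1 lay above the other 4 for 2 of them and below for 2. None of 11 myogenic regulators was called in any pair, and none of 3 tested adipocyte markers. Whether these marker transcripts came from other cell types or from the myotubes themselves cannot be told from RNA of a whole C2C12 culture. Any part of other cell types in the differences of Ccnd1, Ccne1 and Cdk6 was not tested.

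Some genes upstream of the cyclins and inhibitors, and some p53 targets, were called between numbers. Of 22 tested p53 targets, Sesn2 and Gadd45a, stress genes that other factors also induce, were lower in number 1 by log2 differences of -1.01 and -0.75 against number 2 and -0.91 and -0.79 against number 3, while Cdkn1a, the best known p53 target, did not pass. Plk3 (-0.62, against number 2) and the death receptor gene Fas (-0.54, against number 3) were the other p53 targets called, and none was called higher. Neither Plk3 nor Fas passed the F test over the 3 numbers (limma, adjusted p = 0.0568 and 0.0701). The p53 targets had 3 calls against number 2 and 3 against number 3. These became 2 and 1 with no filter, and 6 and 6 with a variance trend. Of all tested genes, 1.97% were called lower in number 1 than in number 2 and 2.28% than in number 3. The 22 targets moved both ways. Their median difference was 0.09 against number 2 (12 up, 10 down in number 1) and -0.07 against number 3 (10 up, 12 down). Among 28 tested upstream genes, 4 were called higher in number 1 than in number 3, where 2.20% of all tested genes were. They were Id2 (0.82), an inhibitor of helix-loop-helix factors, Hey1 (0.74), a Notch effector, Notch1 itself (0.63) and the immediate early factor Egr1 (0.57). Klf4 (-0.70) was called lower in number 1 than in number 2. Notch1 and Egr1 were named after their values were seen, and neither passed the F test (limma, adjusted p = 0.0607 and 0.0578). The upstream genes had 1 call against number 2 and 4 against number 3. These became 0 and 1 with no filter, and 5 and 6 with a variance trend. As a list, the 28 upstream genes showed no shift to 1 side. Their median difference was 0.02 against number 3 (15 up, 13 down in number 1) and -0.04 against number 2 (12 up, 16 down).

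With silencing, none of the 10 other lists held a called gene, while myotube markers had the most positive median. Silenced minus control, the median was -0.02 over G1 to S regulators, -0.08 over S phase genes (9 of higher and 17 of lower mean in silenced arrays), -0.04 over mitotic genes (10 higher, 15 lower) and -0.04 over p53 targets. The median was 0.06 over upstream genes (23 higher, 5 lower) and 0.10 over myogenic regulators (9 higher, 2 lower). Over myotube markers it was 0.13 (19 higher, 5 lower). Of all tested genes, 52.7% had a higher mean in silenced arrays. An unadjusted value under 0.05 (limma) was found for 7 of the 24 myotube markers and for 4.80% of all tested genes. The median was 0.07 over markers of undifferentiated myoblasts, 0.0033 over fibroblast and -0.03 over adipocyte markers.

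The profiles nearest to Ccne1 and Ccnd1 were sought because these 2 of the 10 genes varied most over the 6 arrays. Nearness was the root mean square difference over the 6 arrays between log2 profiles centred on their own mean, among all tested genes. For Ccne1 the nearest were E2f7 (0.06), Limk1 (0.06), a kinase acting on cofilin, Uhrf1 (0.09), the lipid transporter gene Mfsd2a (0.09) and the nucleoporin gene Aaas (0.10). For Ccnd1 they were Mbnl3, a muscleblind splicing factor (0.07), Mcm4 of the replicative helicase (0.08), Dtl (0.08), a substrate receptor of a ubiquitin ligase active in S phase, and Idi1 (0.08) and Hmgcs1 (0.08) of sterol synthesis.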

How the data were processed

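The authors deposited log2 values for 35556 probe sets on 6 arrays, obtained with RMA per the submitters' processing notes, which name neither a version nor a probe set definition in the sources used here. RMA shrinks differences of dim genes, and no further scaling was applied. The platform annotation gave 1 gene for 21218 probe sets and several for 1881; 18820 genes had a single-gene probe set, and the 11292 with a mean above the 40th percentile (log2 level 3.87) were tested. All 10 genes matched RefSeq of GRCm38.p6 by Entrez identifier. The annotation names no build used by the authors, so gene positions are not given, except for RefSeq sequences.

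Tests used limma 3.58.1 in R 4.3.3 (lmFit, eBayes, 2-sided, Benjamini-Hochberg over all tested genes, threshold 0.05): silenced minus control on all 6 arrays without a covariate, and the replicate number as an F test and 3 pairwise contrasts with the group in the model. Scripts were tested on simulated data. Same-numbered arrays deviated from their group means together (correlations of 0.55, 0.35 and 0.42 for numbers 1, 2 and 3). All 6 arrays correlated most with the other group's array of their own number. The numbers thus seem to pair the arrays, on the data alone since no label states it. Deviations within a group sum to 0, so the apart arrays numbered 1 also raise the correlations among numbers 2 and 3. The pairing within numbers 2 and 3 is therefore less sure. It enters silenced minus control only in the alternative with the number as a block. The 10 genes and the 10 other lists were chosen with earlier results of these data known, so their counts are descriptions. Named list genes are the 3 with the smallest F test p and the 2 with the smallest silenced minus control p per list; others are said to be chosen later. Alternatives were the filter, 2 normalizations, the variance model, the probe set rule, the block, the group term and leaving out arrays; the fit without both arrays numbered 1 was added after seeing the data. Precision is limited by having 6 arrays.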

Additional observations from a re-analysis of the deposited data

How the results depend on the processing

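No gene was called between silenced and control arrays under any alternative, including the replicate block (0 genes; 1168 at an unadjusted p under 0.05) and the fit without both arrays numbered 1, and none of the 10 genes was. Counts of genes called between numbers moved with the filter and the variance model more than with the scaling. The F test, number 1 minus 2 and number 1 minus 3 called 352, 311 and 505 genes; with no filter they called 58, 129 and 99, above the 60th percentile 847, 817 and 816, and with a variance trend 1090, 1018 and 1084. Number 2 minus number 3 called 0 genes, and 5 above the 60th percentile, 17 with a variance trend, 1 after centring and 1 without the group term. Leaving out each array gave 17 to 1070 genes for the F test, 69 to 1036 for number 1 minus 2, 0 to 1007 for number 1 minus 3 and 0 to 98 for number 2 minus 3; the low ends for the F test and for number 1 minus 3 came without silenced array 3 or control array 3. Differences of the 10 genes that changed sign were never called. Silenced minus control, leaving out each array gave -0.31 to 0.14 for Ccnd1, -0.045 to 0.23 for Ccnd2, -0.0084 to 0.17 for Ccnd3 (-0.0089 without both arrays numbered 1), -0.11 to 0.39 for Ccne1 and -0.16 to 0.0079 for Cdkn1b. Number 1 minus 2 gave -0.032 to 0.087 for Cdkn1a, -0.12 to 0.084 for Cdkn2c and -0.029 to 0.27 for Rb1. Number 1 minus 3 gave -0.038 to 0.27 for Ccnd3 and -0.050 to 0.10 for Rb1. Number 2 minus 3 gave -0.15 to 0.0065 for Ccnd3, -0.019 to 0.092 for Cdk4 and -0.24 to 0.056 for Rb1. The cause of these changes was not tested.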
